A study of Mus musculus with 3 samples.

Results

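The genes of the major histocompatibility complex (MHC) and of antigen presentation were described in 3 thymic leukaemias of the mouse. The set held every gene symbol that begins with H2-, the mouse name of the MHC, together with B2m, Cd74, Ciita, Nlrc5, Tap1, Tap2, Tapbp, Tapbpl and Erap1. It came to 53 of 24437 genes. The H2- symbols were divided into 3 classical class I symbols (H2-K1, H2-D1 and H2-L), 30 non-classical class I symbols and 10 class II symbols. H2-Ke6 lies in the MHC but encodes a steroid dehydrogenase (Hsd17b8) and no MHC chain, and it was kept apart. The other 9 members were 7 partners of class I and 2 partners of class II.

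Class I molecules, made of an H2 heavy chain and beta-2 microglobulin, show peptides cut by the proteasome in the cytosol to CD8 T cells and are made by nearly all nucleated cells. Class II molecules, pairs of an alpha and a beta chain, show peptides from the endocytic route to CD4 T cells and are made mainly by B cells, dendritic cells, macrophages and thymic epithelium. In the B lineage class II is known to rise as cells mature. Non-classical class I chains resemble the classical ones but have narrower tissue use and often bind receptors of natural killer (NK) or unconventional T cells.

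RNA was sequenced from thymuses of diseased Mb1-CreDPB mice of the C57BL/6 strain, after homogenisation and lysis of red cells. In these mice Cre is expressed from the mb-1 (Cd79a) locus, which is active in B lineage cells, and deletes Spi1, the gene of the transcription factor PU.1, in animals that also lack Spib. All 3 libraries form a single group, leukaemia 1 (Thy_853), leukaemia 2 (Thy_854) and leukaemia 3 (Thy_857). No ages are given in the labels, no control tissue was analysed here, and the labels do not say in words that each thymus came from another mouse. Values given in threes follow the order leukaemia 1, 2, 3, and every ± is an SD over these libraries (n = 3). Levels are FPKM, the authors' fragments scaled by transcript length and by library size, so that levels of different genes can be set side by side per length. Fragment totals were not analysed here. For members at FPKM of at least 1, the median deposited 95% interval had a half-width of 3.96%, 5.08% and 5.10% of its midpoint.

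The marker lists put B cells first in every library. Summed over 7 B cell markers the level was 3632, 2964 and 2478 FPKM, against 161, 32.6 and 37.7 FPKM over 10 T cell markers and 434, 347 and 133 FPKM over 10 macrophage and neutrophil markers. Dendritic cell markers (8 genes) summed to 5.52, 1.75 and 2.96 FPKM, and thymic epithelium markers (8 genes) to 4.55, 4.35 and 5.84 FPKM. Of the epithelial markers, Foxn1 and Aire stood at 0, 0.00544 and 0 FPKM and at 0, 0.00949 and 0 FPKM. Prss16, at 1.41, 1.65 and 3.57 FPKM, and Ccl25, at 2.57, 2.32 and 1.94 FPKM, were the only ones of that list above 1 FPKM. In bulk RNA, fewer cells of a type and less RNA per cell cannot be told apart.

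**Figure D1:**
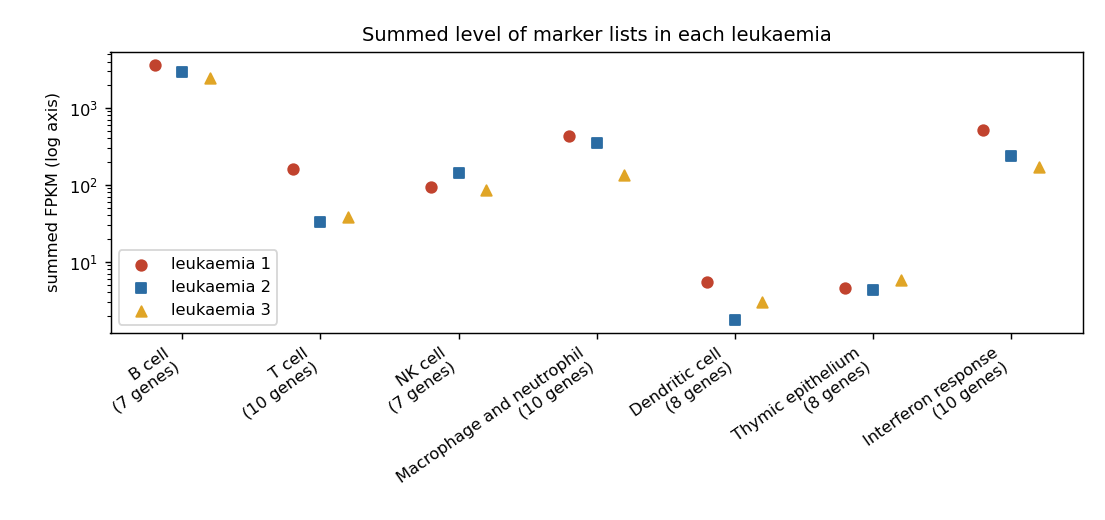
Summed FPKM (log axis) of 7 marker lists in each leukaemia, with a point for each library. T cell markers summed to 161 FPKM in leukaemia 1, against 32.6 and 37.7 FPKM in leukaemias 2 and 3, and the interferon response list to 521 FPKM, against 238 and 171 FPKM.

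Most of the set was transcribed. FPKM of at least 1 in every leukaemia was reached by 34 of 53 members, or 64.2%, beside 38.1% of all genes. The 34 comprised 2 of 3 classical class I symbols, 14 of 30 non-classical symbols, 7 of 7 class I partners, 9 of 10 class II symbols, Cd74 and H2-Ke6. Together the members made up 2.32%, 1.37% and 1.42% of all FPKM. H2-M2, H2-Q10 and the class II transactivator gene Ciita passed 1 in a single leukaemia each. The remaining 16 members stayed under 1 in every library, at 0.392 FPKM or less.

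**Figure D2:**
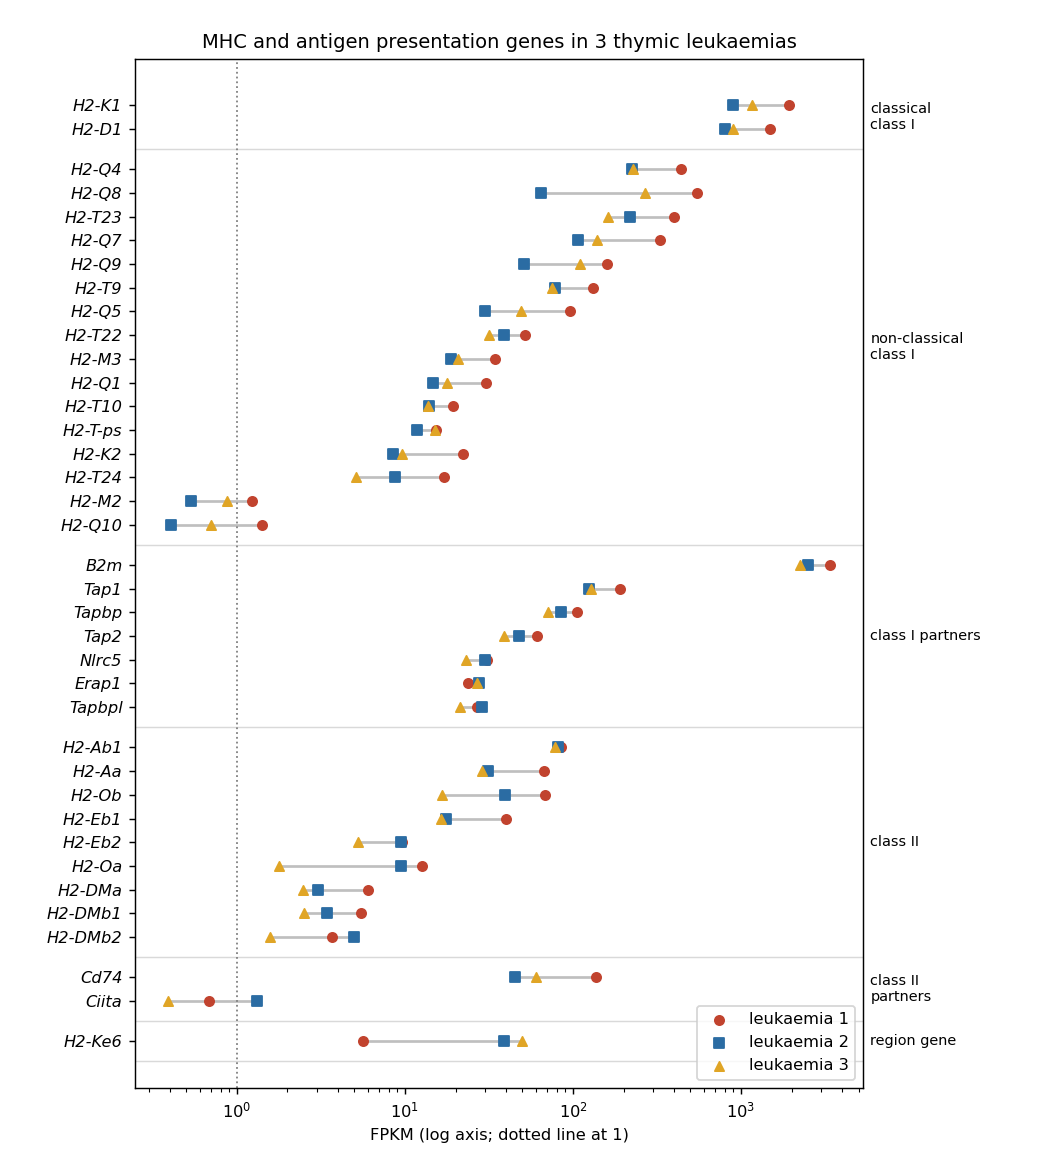
FPKM (log axis) of the 37 members that reached 1 in any leukaemia, grouped by class and ordered by mean level, with a point for each library and a grey line over their range. H2-K1, H2-D1 and B2m stand far to the right, and leukaemia 1 holds the highest value for 30 of the 34 members at 1 or more in every library.

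Classical class I chains were among the most abundant transcripts. H2-K1 (chr17:33996012-34000347 in mm10, minus strand) had 1936, 895 and 1161 FPKM, a mean of 1331 ± 541. H2-D1 (chr17:35263094-35267497, plus strand) had 1478, 808 and 895 FPKM, a mean of 1060.4 ± 364. Leukaemia 1 was the highest for each of them and leukaemia 2 the lowest. H2-K1 ranked 21, 52 and 36 and H2-D1 31, 59 and 52 among the 24437 genes. The ratio of H2-K1 to H2-D1 stayed close, at 1.31, 1.11 and 1.30. H2-L, which C57BL/6 mice are known to lack, was listed at 0 in each library, and its locus lies wholly within that of H2-D1.

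The light chain exceeded every heavy chain. B2m (chr2:122147687-122153082, plus strand), which encodes beta-2 microglobulin, had 3388, 2489 and 2254 FPKM and ranked 4, 9 and 10. Its FPKM lay above the deposited intervals, whose midpoints were 2633, 1908 and 1754, while H2-K1 and H2-D1 lay just below their own lower bounds. B2m stood at 0.992, 1.46 and 1.10 times the sum of H2-K1 and H2-D1. With interval midpoints these ratios were 0.758, 1.10 and 0.839, so that B2m was below that sum in 2 of the 3 leukaemias on this reading and in 1 on the other. On either reading the ratio was highest in leukaemia 2.

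Non-classical class I transcripts were abundant in the Q and T families and nearly absent in the M10 family. The Q symbols summed to 1603, 491 and 813 FPKM and the T symbols to 635, 368 and 303 FPKM. The 12 M symbols summed to 35.7, 19.4 and 21.5 FPKM, nearly all of it H2-M3, which presents formylated peptides and had 34.4, 18.9 and 20.6 FPKM. Classical chains made up 59.8%, 65.7% and 64.2% of all class I heavy chain FPKM, the Q symbols 28.1%, 19.0% and 25.4%, and the T symbols 11.1%, 14.2% and 9.46%. Leukaemia 2 thus had the smallest Q share and the largest T share.

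**Figure D3:**
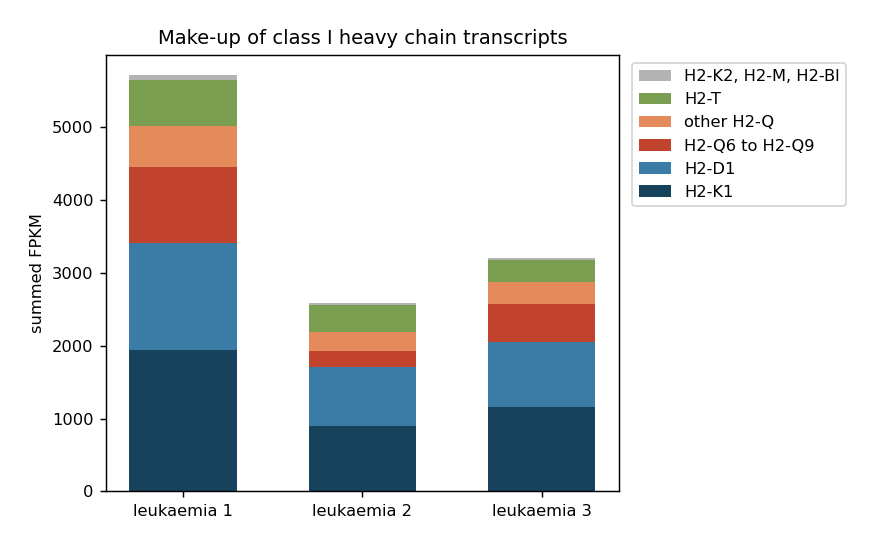
Summed FPKM of class I heavy chain symbols in each leukaemia, stacked by family, with a bar for each library. The H2-Q6 to H2-Q9 segment is 1037, 222 and 516 FPKM in leukaemias 1, 2 and 3, with the middle value in leukaemia 3.

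Within the Q family H2-Q8 had the widest fold range, 8.48 times between the highest and the lowest library, among the members that reached 1 FPKM. H2-Q8 had 548, 64.7 and 267 FPKM, H2-Q7 331, 106 and 139.9 FPKM and H2-Q9 158, 50.9 and 109 FPKM, while H2-Q6 was listed at 0. The loci of H2-Q6 and H2-Q8 overlap over 3485 bases and those of H2-Q7 and H2-Q9 over 4604 bases, so how fragments were divided within each pair rests on the authors' assignment. Summed, H2-Q6 and H2-Q8 had 548, 64.7 and 267 FPKM and H2-Q7 and H2-Q9 489, 157 and 249 FPKM. The 4 together came to 1037, 222 and 516 FPKM, which is 4.67 times higher in leukaemia 1 than in leukaemia 2 and 2.01 times higher than in leukaemia 3. The order leukaemia 1, 3, 2 was the same for each of the pairs.

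Other Q and K symbols followed the same order of libraries or came close to it. H2-Q4 had 438, 224 and 229 FPKM, with leukaemias 2 and 3 level. H2-Q5, a polymorphic pseudogene in GENCODE, had 95.3, 29.95 and 49.4 FPKM. H2-Q1 had 30.3, 14.7 and 17.7 FPKM and the transcribed pseudogene H2-K2 22.04, 8.53 and 9.64 FPKM. In all 4, leukaemia 1 was highest and leukaemia 2 lowest. H2-Q10, whose product is secreted by the liver, stood at 1.41, 0.405 and 0.706 FPKM and H2-M2 at 1.22, 0.531 and 0.876 FPKM, again in that order.

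T family levels were mostly lowest in leukaemia 3. H2-T23, which encodes Qa-1, a ligand of the NK receptor pair CD94 and NKG2A, had 401, 217 and 163 FPKM. H2-T24 had 17.0, 8.78 and 5.12 FPKM. For these 2 genes the libraries were ordered 1, 2, 3. H2-T22 had 51.5, 38.7 and 31.4 FPKM and H2-T9 131, 77.7 and 75.0 FPKM, and since their loci overlap over 4284 bases their sum of 183, 116 and 106 FPKM is the safer value. All of these genes were highest in leukaemia 1. H2-T10, which like H2-T22 is a ligand of gamma delta T cells and is listed as a polymorphic pseudogene, had 19.3, 13.8 and 13.8 FPKM, with leukaemias 2 and 3 level. The pseudogene H2-T-ps differed in order, at 15.3, 11.9 and 15.2 FPKM. H2-T3, which encodes the thymus leukaemia antigen, stood at 0.00264, 0.00237 and 0.00236 FPKM.

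The members under 1 FPKM were mostly non-classical. H2-M1, H2-M9, H2-M11, H2-M10.1 and H2-Q6, with the classical H2-L, made up the 6 members listed at 0 in every library, and the other M10 genes, a family known from the vomeronasal organ, were at 0.00202 FPKM or less. H2-M5 was at 0.0654, 0 and 0 FPKM, H2-Bl at 0.274, 0.104 and 0.113 FPKM and H2-Q2 at 0.392, 0.110 and 0.207 FPKM. An exact 0 is a listed value and does not show that a transcript was absent. With these members included, non-classical symbols had a median log2(FPKM + 1) of 1.21, 0.55 and 0.84, below the class II median of 3.59, 3.39 and 2.23. The difference, non-classical minus class II, averaged -2.20 ± 0.74 and turned to 2.27 when the symbols with a mean under 1 FPKM were left out.

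Sequence shared between class I genes limits how far single symbols can be read. Of GENCODE transcripts cut into 50-base words, H2-Q5 shared 36.4% of its words with other members, H2-T22 34.4% and H2-T10 32.4%. H2-T-ps shared 28.8%, with 18.0% found in H2-T23, H2-Q6 27.0% and H2-Q7 25.1%. H2-K1 shared 9.63% and H2-D1 10.9%. B2m, H2-Aa, H2-Ab1, H2-Eb1, Cd74, Ciita and Nlrc5 shared none. In class II only H2-DMb1 and H2-DMb2 shared words, 22.7% and 21.2% of their own. H2-L, H2-Q8, H2-Q9 and H2-T9 were not analysed here in this way.

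Besides B2m, the class I partners ranged from the transporter gene Tap1 to Tapbpl and Erap1. Tap1 and Tap2, the subunits of the peptide transporter, had 192, 125 and 128 FPKM and 61.2, 48.01 and 39.1 FPKM. Tapbp, which encodes tapasin and bridges the transporter to empty class I, had 106, 84.3 and 70.7 FPKM. Tapbpl, a peptide editor related to tapasin, had 26.8, 28.6 and 21.4 FPKM. Erap1, the aminopeptidase that trims peptides in the endoplasmic reticulum, had 23.6, 27.6 and 26.9 FPKM. Nlrc5, the transactivator of class I genes, had 30.9, 29.9 and 22.97 FPKM. The highest library was 1.57 times the lowest or less for all 7 partners, B2m included, whereas H2-K1 spanned 2.16 times and H2-Q8 8.48 times. None of the 7 was counted as higher or lower in any pair by the rule given further on, beside 8.16%, 9.98% and 4.68% of all genes, so a count of 0 among 7 is near the share of all genes.

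Class II chains were present at levels far under the classical class I chains. H2-Ab1 (chr17:34263227-34269418, plus strand), the beta chain of I-A, had 84.6, 81.2 and 77.8 FPKM. H2-Aa (chr17:34282751-34287771, minus strand), its alpha partner, had 67.1, 31.2 and 28.7 FPKM. H2-Eb1, the beta chain of I-E, had 40.0, 17.7 and 16.4 FPKM. The classical class I sum was 17.8, 13.1 and 16.7 times the sum of these 3 chains. H2-Ea-ps, the alpha chain gene of I-E that is known to be defective in C57BL/6 mice, stood at 0.218, 0.0287 and 0.0259 FPKM. The difference of class medians, classical class I minus class II, was 6.94, 6.27 and 7.58 on the log2(FPKM + 1) scale, a mean of 6.93 ± 0.65. With H2-L at 0 among 3 classical symbols, the classical median is the value of H2-D1 alone. The mean over members in place of the median gave 3.36, to which H2-L at 0 contributes. With only members of mean FPKM of at least 1 the difference of medians was 6.88.

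The 2 chains of I-A did not vary together. H2-Ab1 spanned 1.09 times between libraries, the narrowest range of any member at 1 FPKM or more, while H2-Aa spanned 2.34 times. The ratio of H2-Ab1 to H2-Aa was accordingly 1.26 in leukaemia 1 and 2.61 and 2.71 in leukaemias 2 and 3. H2-Aa kept its ratio to H2-Eb1, at 1.68, 1.76 and 1.75. FPKM lay above its own upper bound for all 3 genes in every library, and with interval midpoints the ratio of H2-Ab1 to H2-Aa was 1.29, 2.65 and 2.75. H2-Eb2, a second beta chain gene of the E region, had 9.62, 9.46 and 5.28 FPKM, with leukaemias 1 and 2 level.

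**Figure D4:**
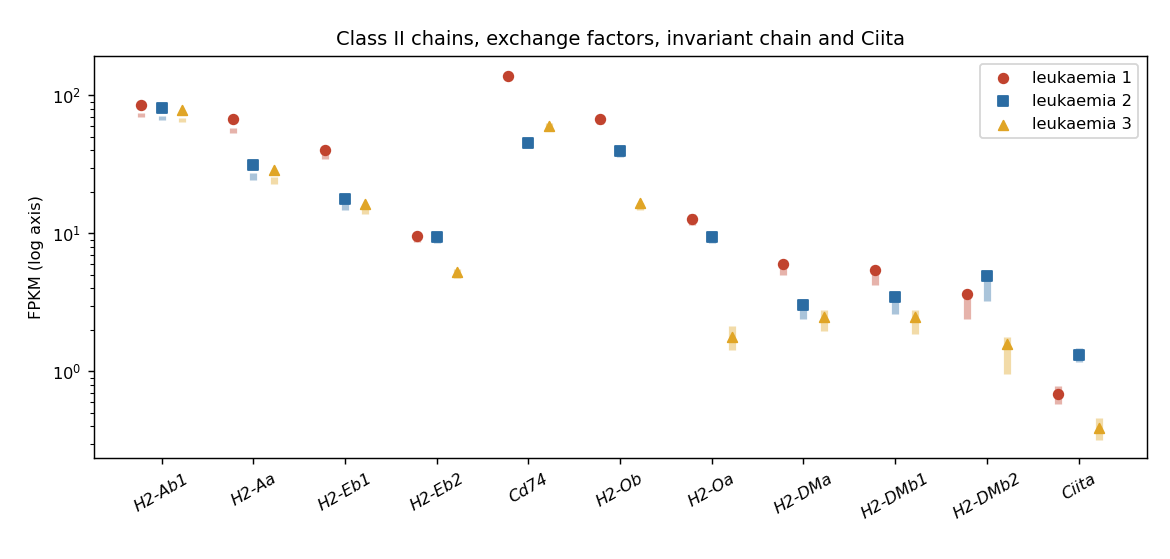
FPKM (log axis) of class II chains, Cd74, the DO and DM exchange factors and Ciita, with a point for each library and a pale bar for its deposited 95% interval. H2-Ab1 is level at 77.8 to 84.6 FPKM, while H2-Aa, H2-Eb1 and Cd74 stand higher in leukaemia 1, and H2-Oa and H2-Ob are lowest in leukaemia 3.

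The invariant chain and the transactivator did not share an order. Cd74, which encodes the invariant chain that escorts class II to the endocytic route, had 137, 45.3 and 60.2 FPKM. Its ratio to H2-Aa was 2.04, 1.45 and 2.097, lowest in leukaemia 2. Ciita, which is required for class II transcription, had 0.684, 1.32 and 0.391 FPKM and was thus highest in leukaemia 2, where H2-Aa and Cd74 were not. It ranked 10380, 9516 and 10446 among the 24437 genes.

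Among the exchange factors H2-Ob exceeded every DM chain. H2-DM, which loads class II with peptide, is encoded by H2-DMa, at 6.03, 3.04 and 2.46 FPKM, H2-DMb1, at 5.46, 3.45 and 2.49 FPKM, and H2-DMb2, at 3.67, 4.95 and 1.58 FPKM. H2-DO, which holds H2-DM back and is known mainly from B cells, is encoded by H2-Oa and H2-Ob. H2-Ob had 67.8, 39.3 and 16.5 FPKM and H2-Oa 12.7, 9.46 and 1.78 FPKM. Both were at their highest level in leukaemia 1 and their lowest in leukaemia 3. H2-Ob stood at 7.42, 4.68 and 4.05 times the sum of H2-DMb1 and H2-DMb2, and at 5.34, 4.16 and 9.31 times H2-Oa. H2-Oa stood at 2.105, 3.11 and 0.721 times H2-DMa, so the alpha chain of DO was above that of DM in leukaemias 1 and 2 and below it in leukaemia 3.

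The leukaemias were then set against each other member by member. A member was counted as higher or lower in a pair when its log2(FPKM + 1) differed by 1 or more, FPKM reached 1 in either library, and the deposited 95% intervals did not overlap. With 1 library per leukaemia these are counts without a replicate check, and no p-value is given. Against leukaemia 2, 9 members of the 37 that reached 1 FPKM were higher in leukaemia 1, or 24.3%, where 5.56% of all genes were. H2-Ke6 was the single member that was lower, where 2.60% of all genes were. Against leukaemia 3, 11 of 36 members were higher in leukaemia 1, or 30.6%, and 6.75% of all genes were, and again H2-Ke6 alone was lower, beside 3.22% of all genes. Between leukaemias 2 and 3, 3 of 35 members were higher in leukaemia 2, or 8.57%, beside 2.96% of all genes, and 2 were lower, beside 1.72%. In either direction 10 of 37, 12 of 36 and 5 of 35 members were counted in these pairs, beside 8.16%, 9.98% and 4.68% of all genes. Members under 1 FPKM in both libraries of a pair could not be counted.

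H2-Q8, H2-Q7, H2-K2, H2-Aa, H2-Eb1 and Cd74 were counted as higher in leukaemia 1 in both of its pairs. With overlapping loci summed, an alternative chosen after seeing the data, the call of H2-Q7 against leukaemia 3 was lost, and H2-Q7 and H2-Q9 together had 489 FPKM in leukaemia 1 and 249 FPKM in leukaemia 3. H2-Q8 differed by 3.06 from leukaemia 2 and by 1.03 from leukaemia 3 on the log2(FPKM + 1) scale, and Cd74 by 1.58 and 1.17. H2-Aa differed by 1.08 and 1.20 and H2-Eb1 by 1.13 and 1.24, nearly the same amounts. H2-K1 (1.11), H2-Q5 (1.64) and H2-Q9 (1.62) were counted against leukaemia 2 and not against leukaemia 3, at differences of 0.74, 0.93 and 0.53 from leukaemia 3. H2-Q9, of status LOWDATA, was no longer counted by itself with only rows of status OK or with overlapping loci summed. H2-T23 (1.30), H2-T24 (1.55), H2-Oa (2.30), H2-Ob (1.97) and H2-DMa (1.02) were counted against leukaemia 3 and not against leukaemia 2, at differences of 0.88, 0.88, 0.39, 0.77 and 0.80 from leukaemia 2. The call of H2-DMa was lost with interval midpoints as the level. Whether the differences from leukaemias 2 and 3 differ from each other was not tested.

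**Figure D5:**
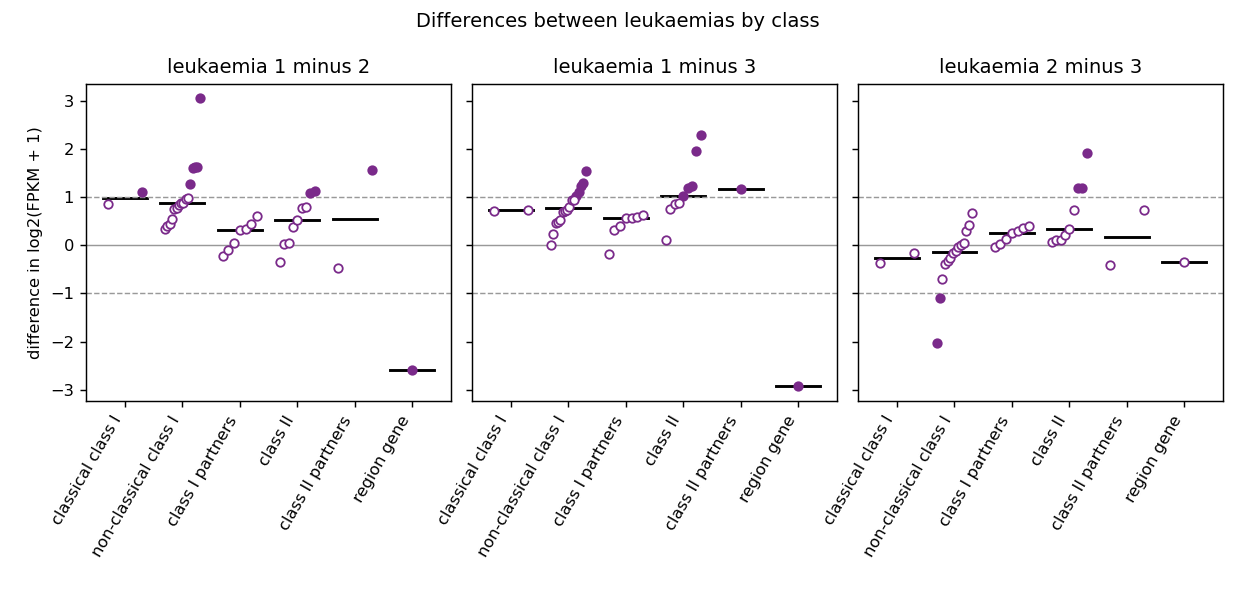
Difference in log2(FPKM + 1) of each member in the 3 pairs of leukaemias, by class. Filled points were counted as higher or lower, black bars are class medians, and dashed lines mark a difference of 1. All plotted classical and non-classical class I points of leukaemia 1 minus 2 and of leukaemia 1 minus 3 lie above 0, and H2-Ke6 lies at -2.59 and -2.93.

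Few members were counted between leukaemias 2 and 3. H2-Oa, H2-Ob and H2-DMb2, all of class II, were higher in leukaemia 2, by 1.91, 1.20 and 1.20 on the log2(FPKM + 1) scale. With a minimum of 5 FPKM H2-DMb2 was no longer counted. H2-Q8 and H2-Q9 were lower in leukaemia 2, by -2.03 and -1.09. H2-Q9, of status LOWDATA, lost its call with overlapping loci summed and with only rows of status OK, which leaves H2-Q8 alone. The median difference, leukaemia 2 minus 3, was 0.35 over 9 class II members and -0.14 over 14 non-classical members at 1 FPKM or more in every library, beside -0.06 over all 9300 such genes. The level was above that of leukaemia 3 in leukaemia 2 for all 9 class II members, 6 of 7 class I partners, 5 of 14 non-classical members and neither of the 2 classical chains, beside 3693 of all 9300 genes, so the non-classical count is near that of all genes. Of the macrophage and neutrophil markers Lyz2, S100a8 and S100a9 were also higher in leukaemia 2 than in leukaemia 3, by 1.69, 2.65 and 2.45. Csf1r, C1qa, C1qb, C1qc and Cd68 of that list were not counted, at differences of 0.58, 0.40, 0.46, 0.42 and 0.61. The list summed to 347 FPKM in leukaemia 2 and 133 FPKM in leukaemia 3. Of the B cell markers Blnk was lower in leukaemia 2, by -1.32. The part of these cells in the class II differences was not tested.

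The shift towards leukaemia 1 ran through both classes beyond the counted members. Of the 34 members at 1 FPKM or more in every library, 30 were highest in leukaemia 1, or 88.2%, beside 39.5% of all 9300 such genes. These were 14 of 14 non-classical chains, both classical chains, 8 of 9 class II chains, 5 of 7 class I partners and Cd74. The 4 others were H2-DMb2, Erap1 and Tapbpl, highest in leukaemia 2, and H2-Ke6, highest in leukaemia 3. The median difference, leukaemia 1 minus 2, was 0.92 over the non-classical chains, 0.54 over class II and 0.32 over the class I partners, beside 0.00 over all genes. For leukaemia 1 minus 3 it was 0.87, 1.02 and 0.57, beside -0.02. Ranges of 2 times or more between the highest and the lowest library were found for 18 of the 34 members, or 52.9%, beside 13.8% of all genes.

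H2-Ke6 moved against the rest of the region. It had 5.65, 39.0 and 49.7 FPKM, so that leukaemia 1 stood far under both others. The differences were -2.59 from leukaemia 2 and -2.93 from leukaemia 3, the largest of any member in the second of these pairs. Its locus (chr17:34026033-34028055, minus strand) lies between H2-K1 and H2-Oa, each of which was higher in leukaemia 1 in a pair.

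Markers of other cells and interferon-response genes moved with leukaemia 1 as well. Against leukaemia 2, all 10 T cell markers were higher in leukaemia 1, and against leukaemia 3, 9 of 10. Of 7 NK cell markers 4 were higher against leukaemia 2 and 3 against leukaemia 3, and Gzma was lower in both. Of 10 macrophage and neutrophil markers none was counted as differing between leukaemias 1 and 2, and 4 were higher in leukaemia 1 against leukaemia 3. Of the dendritic cell markers only Itgax, at 3.26, 1.15 and 1.76 FPKM, reached 1, and Cd209a was listed at 0 in leukaemias 2 and 3. Interferon-response genes summed to 521, 238 and 171 FPKM, with 7 of 10 higher in leukaemia 1 against leukaemia 2 and 9 of 10 against leukaemia 3. Their part in the levels of MHC genes was not tested. The order of the interferon sum, leukaemia 1, 2, 3, was also that of the B cell sum and of the macrophage and neutrophil sum. H2-T23, H2-Aa, H2-Eb1, H2-Ob, B2m and Tap2 were among the members with this order. Of these, only H2-Ob was counted between leukaemias 2 and 3. H2-K1, H2-D1, H2-Q7 to H2-Q9 and Tap1 had the order 1, 3, 2. The T cell sum of 161, 32.6 and 37.7 FPKM and the dendritic cell sum of 5.52, 1.75 and 2.96 FPKM had it as well. No T cell marker was counted between leukaemias 2 and 3, and of these members only H2-Q8 and H2-Q9 were. With 3 libraries few orders are possible, and a link between any of these orders was not tested.

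Other genes of the route were counted at shares near those of all genes. Of 29 genes of peptide loading, immunoproteasome, class II processing, class II promoter factors, interferon gamma signalling and class I-like chains outside the H2 region, 2 were higher in leukaemia 1 against leukaemia 2 and none lower, beside 5.56% and 2.60% of all genes. Against leukaemia 3, 3 were higher in leukaemia 1 and 1 lower, beside 6.75% and 3.22%. In leukaemia 2, 1 was higher than in leukaemia 3, beside 2.96%. Psme1, a proteasome activator subunit, had 314, 307 and 313 FPKM, and the immunoproteasome gene Psmb9, next to Tap1, 258, 248 and 254 FPKM, both nearly constant. Calr, a chaperone of class I loading, had 212, 269 and 203 FPKM. Nfya, a subunit of the CCAAT-binding factor, led the class II promoter factors at 32.7, 36.6 and 42.1 FPKM, and no factor of that list differed in any pair. Irf8 led the interferon gamma list at 146, 207 and 155 FPKM.

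The counted genes came from 3 of the lists. Ctss, the cathepsin that degrades the invariant chain, had 76.1, 32.1 and 36.1 FPKM and was counted as higher in leukaemia 1 in both of its pairs, with differences of 1.22 and 1.06. Cd1d1, a lipid-presenting class I-like chain encoded outside the MHC, had 106, 52.3 and 54.2 FPKM and was higher than in leukaemia 2 by 1.007. Lgmn, an endosomal peptidase, had 25.0, 16.6 and 11.9 FPKM and was higher in leukaemia 1 than in leukaemia 3. Ifi30, an endosomal reductase that prepares antigens, ran the other way at 28.1, 35.3 and 62.6 FPKM, lower in leukaemia 1 than in leukaemia 3. Ifng itself had 3.32, 3.44 and 0.902 FPKM and was higher in leukaemias 1 and 2 than in leukaemia 3.

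Promoters of both classes are shown, since class I promoters are known for NF-kB and interferon-response elements and class II promoters for X and Y boxes, the Y box being a CCAAT box. Sequences are RefSeq promoters of GRCm38.p6, the assembly that mm10 names, from 200 bases before to 30 bases after the gene start, read 5′ to 3′ on the gene's strand. Capitals mark, on either strand, the CCAAT box, both interferon-response forms (GAA or GAAA, any 2 bases, GAAA) and the NF-kB form (GGGA, any base, T, any base, CCC). H2-K1, H2-D1, H2-Q7 and B2m stand for class I, H2-Aa, H2-Eb1 and H2-Ob for class II, and H2-M10.1 for the members listed at 0.
H2-K1, chr17:34000318-34000547, minus strand: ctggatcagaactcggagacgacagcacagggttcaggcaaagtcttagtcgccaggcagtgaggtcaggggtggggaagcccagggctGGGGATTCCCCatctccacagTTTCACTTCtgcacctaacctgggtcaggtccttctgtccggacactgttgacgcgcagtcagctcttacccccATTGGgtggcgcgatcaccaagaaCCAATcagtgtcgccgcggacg
H2-D1, chr17:35262894-35263123, plus strand: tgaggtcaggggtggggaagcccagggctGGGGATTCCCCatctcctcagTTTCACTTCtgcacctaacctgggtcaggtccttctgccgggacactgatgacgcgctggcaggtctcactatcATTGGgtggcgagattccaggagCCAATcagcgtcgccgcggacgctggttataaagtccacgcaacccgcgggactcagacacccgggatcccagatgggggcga
H2-Q7, chr17:35438955-35439184, plus strand: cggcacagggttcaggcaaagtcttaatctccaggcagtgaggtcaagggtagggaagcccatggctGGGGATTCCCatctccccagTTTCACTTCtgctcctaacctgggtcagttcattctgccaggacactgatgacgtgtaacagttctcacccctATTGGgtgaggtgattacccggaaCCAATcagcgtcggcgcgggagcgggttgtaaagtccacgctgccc
B2m, chr2:122147487-122147716, plus strand: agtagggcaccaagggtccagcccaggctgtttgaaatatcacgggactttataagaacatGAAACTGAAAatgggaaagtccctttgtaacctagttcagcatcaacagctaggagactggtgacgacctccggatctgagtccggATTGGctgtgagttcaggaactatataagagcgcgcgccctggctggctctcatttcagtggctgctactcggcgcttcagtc
H2-Aa, chr17:34287794-34288023, minus strand: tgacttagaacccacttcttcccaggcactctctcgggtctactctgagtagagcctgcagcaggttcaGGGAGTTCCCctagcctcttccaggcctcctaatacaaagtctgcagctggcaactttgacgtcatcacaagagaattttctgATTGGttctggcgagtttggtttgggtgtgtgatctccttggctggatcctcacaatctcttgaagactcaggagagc
H2-Eb1, chr17:34305667-34305896, plus strand: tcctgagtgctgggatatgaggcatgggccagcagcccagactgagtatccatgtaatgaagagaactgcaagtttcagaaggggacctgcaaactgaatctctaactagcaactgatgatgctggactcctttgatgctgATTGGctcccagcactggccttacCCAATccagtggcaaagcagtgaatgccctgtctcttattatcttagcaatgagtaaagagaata
H2-Ob, chr17:34238705-34238934, plus strand: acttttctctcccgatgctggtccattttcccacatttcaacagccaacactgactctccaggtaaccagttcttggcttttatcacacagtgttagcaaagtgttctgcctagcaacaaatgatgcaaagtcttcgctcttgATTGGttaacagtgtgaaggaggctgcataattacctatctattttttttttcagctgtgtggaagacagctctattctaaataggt
H2-M10.1, chr17:36326121-36326350, minus strand: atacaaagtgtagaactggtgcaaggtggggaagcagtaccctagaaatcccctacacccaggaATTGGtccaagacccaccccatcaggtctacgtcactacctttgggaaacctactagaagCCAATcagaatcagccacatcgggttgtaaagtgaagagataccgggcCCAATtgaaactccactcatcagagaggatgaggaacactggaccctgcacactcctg
H2-K1, H2-D1 and H2-Q7 show the same order of an NF-kB form, an interferon-response form and paired CCAAT boxes. B2m shows an interferon-response form and a CCAAT box but no NF-kB form. No interferon-response form is seen in H2-Aa, H2-Eb1 and H2-Ob. Of these, H2-Aa shows an NF-kB form and a CCAAT box, H2-Eb1 paired CCAAT boxes and H2-Ob a CCAAT box.

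Promoters of 36 of the 53 members were in the table of 27025 genes, and H2-Ab1 was not among them. They were searched over 300 bases, 250 before the start and 50 after it. A gene with several entries was counted if any of them matched. A CCAAT box was found for 8 of 8 class II genes, 2 of 2 classical and 18 of 21 non-classical class I genes, beside 41.1% of all genes. For H2-DMa another entry held none. The form GAA, any 2 bases, GAAA was found for both classical genes and for 6 of 21 non-classical genes, namely H2-Q4, H2-Q6, H2-Q7, H2-Q10, H2-M2 and H2-M3, and for no class II gene, beside 8.68% of all genes. The form that begins with GAAA was found for B2m, Erap1, H2-T22 and H2-T23, beside 3.99%. The NF-kB form was found for H2-K1, H2-D1, H2-Q4, H2-Q6, H2-Q7 and H2-Aa, beside 1.26%. An X box core (C, any base, TAG, any base, AAC) was found for 2 of 8 class II genes, H2-DMb1 and H2-Ob, beside 4.64%. This form is strict, so a promoter without a match may still hold an X box in other letters. The core of the PU.1 site, GAGGAA, was found for 12 of 21 non-classical genes and 1 of 8 class II genes, beside 31.3%. It was found for neither classical gene and for none of 4 class I partners. The 12 were 5 of the 8 that reached 1 FPKM in any library and 7 of the 13 that did not. These 7 were H2-M5 and the H2-M10 genes. The forms were chosen with the levels known, and the shorter interferon-response form was added after a search with the longer one. A match describes these letters only and shows no site in use. H2-M10.1, listed at 0, carries CCAAT boxes too.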

How the data were processed

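RNA of homogenised leukaemic thymuses was sequenced in 3 libraries of 1 group. The submitters' processing notes name mm10 and 4 tools, Cuffdiff 2.1.1, TopHat2 2.0.9, Trim Galore 0.2.8.1 and an unversioned Cufflinks, without their settings. Per the file headers, the authors deposited FPKM for each gene, the bounds of its 95% interval and a status. FPKM holds no counts, so no count test was used, and library depth is unknown. Of 25020 rows per table, 26 with a symbol turned into a date were left out, and loci of the 286 symbols with several were summed. All rows were kept whatever their status, which was LOWDATA for H2-Q6 and H2-Q9. FPKM lay above its own upper bound for 16, 16 and 15 of the 36, 35 and 34 members at 1 or more. This was so for 27.1%, 28.1% and 28.4% of all genes at 1 or more. Without the interval criterion the counts of members higher in a pair stayed at 9, 11 and 3. Starts were raised by 1 from the deposited coordinates.

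Differences were taken on log2(FPKM + 1), which understates those of low genes. The members named are those that reached 1 FPKM in any library or were counted in any pair, besides Ciita and Nlrc5. Of the pathway lists, the highest gene and those counted in any pair were named, and Psmb9 was added after its values were seen. Low members, other markers and ratios were likewise chosen after seeing values. The members and lists were chosen with earlier results of these data known. The rule for pairs was tried on simulated counts with intervals centred on the level and no variation between animals. Its error rate in these libraries is therefore unknown. Alternatives were other pseudocounts, minimums and thresholds, interval midpoints, 2 rescalings, only rows of status OK, libraries left out, class means and summed overlapping loci. Python 3.11.15, numpy 2.4.6, pandas 2.3.3 and matplotlib 3.10.9 were used.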

Additional observations from a re-analysis of the deposited data

How the results depend on the processing

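Of 62 values recomputed under an alternative setting, 52 stayed close to the reported value (counts within 1.5 times, class differences within 1 SD over the leukaemias), 9 moved further and 1 reversed. The counts of members higher in leukaemia 1 than in leukaemia 2, in leukaemia 1 than in leukaemia 3 and in leukaemia 2 than in leukaemia 3, reported as 9, 11 and 3, were 1, 1 and 0 with a difference of at least 2 on the log2 scale. With a difference of at least 0.5 they were 22, 27 and 6. A stricter or wider threshold counts fewer or more members by construction. At the threshold of 2 the member counted was H2-Q8 against leukaemia 2 and H2-Oa against leukaemia 3.

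The difference of medians, classical class I minus class II, was 3.36 with class means, to which H2-L at 0 contributes. Non-classical class I minus class II was -3.05 with a pseudocount of 0.1, -0.68 with class means and 2.27 with only members of mean FPKM of at least 1, which leaves out the symbols near 0. Leaving out each leukaemia in turn gave 34 members at 1 FPKM or more each time, 6.61 to 7.26 for classical and -2.61 to -1.88 for non-classical minus class II. Rescaling shifted the log2 ratio of FPKM between any 2 libraries by at most 0.052, for every gene alike. Summing overlapping loci was chosen after seeing the data. No paired analysis was possible because the libraries form 1 group. Unknown depth limits all members under 1 FPKM, for which no floor can be given.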
